A study of Saccharomyces cerevisiae with 8 samples.

Results

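The genes described here build ergosterol and fatty acids in the budding yeast Saccharomyces cerevisiae. They were chosen by name and known role, with earlier results of these data known: 33 genes for the enzymes of the ergosterol pathway, sterol esterification, fatty acid synthesis and desaturation, together with the transcription factors UPC2 and ECM22. Of these 33 genes, 28 are among the 6030 annotated transcripts (4928 of them transcripts of open reading frames), and all 28 passed the filter on low counts. ERG13, ARE2, ACC1, FAS1 and FAS2 were not analysed here.

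Ergosterol is the main sterol of fungal membranes and does there what cholesterol does in animals. Its synthesis starts from acetyl-CoA, runs through mevalonate, farnesyl pyrophosphate, squalene and lanosterol, and ends with a series of steps in the endoplasmic reticulum, several of which need oxygen or heme. Allylamine antifungal drugs act before lanosterol and azoles after it. Upc2 and Ecm22 are zinc cluster transcription factors that bind a sterol regulatory element in the promoters of many of these genes and can raise their transcription. Mediator is a large coactivator complex that passes signals from DNA-bound activators to RNA polymerase II, and Med7, Med21 and Med10 are subunits of its middle module.

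RNA was measured in 3 mutant strains, which carry the allele med7-1002, med21-1002 or med10-1002, and in their parent, with 2 libraries per strain and 8 in all. The alleles are shortened to med7, med21 and med10 below, and the labels do not describe them as deletions. The labels give all 4 strains one background, parent included, with the mating type MATa. It has the drug resistance markers can1-100 and cyh2r, a mutant HSP82 gene (hsp82-), and a lacZ reporter named DHSE-lacZ. Its auxotrophic markers are ade- and his3-11,15 together with trp1-1 and ura3 and a mutant allele of the leucine synthesis gene LEU2. Cells grew in the rich glucose medium YPD at 30 °C to an OD600 of 0.8 and received 5 mM 4-thiouracil for 6 min, a uracil analogue that enters RNA made during that time, and this labelled RNA was purified and sequenced. Levels are in CPM, read counts scaled to the size of the library with TMM factors. A change shared by most transcripts is scaled away, so neither the number of cells nor the RNA per cell can be read from CPM. Counts of spike-in RNA were not analysed, so whether total RNA synthesis differed between strains was not tested. Each rise or fall below is measured against the bulk of transcripts and need not be a change in absolute synthesis. A gene is said to have risen or fallen where the quasi-likelihood test of edgeR gave a Benjamini-Hochberg adjusted p under 0.05 over the 5746 transcripts tested. The labels do not say whether both libraries of a strain are separate cultures, and every p-value here therefore rests on a spread between samples that may be technical.

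Some properties of the med7 libraries bear on what follows. They held 10962170 and 23629303 assigned counts, against 14243200 to 21190842 in the other 6 libraries. Replicate 1 of med7 had 49.5% of its reads outside annotated transcripts, against 32.7% to 37.7% elsewhere. The log2 difference between both replicates had an SD of 0.92 over all transcripts in med7, against 0.37 in med21, 0.23 in med10 and 0.27 in parent, while over the 28 genes it was 0.27, 0.18, 0.11 and 0.12. Mating-type genes went against the labels: 5 genes specific to a cells summed to 482 and 698 CPM in med7, against 15.0 to 63.4 CPM in the other libraries, and 4 genes specific to alpha cells summed to 61.0 and 70.2 CPM in med7, against 848 to 1287 CPM elsewhere. The alpha-factor gene MF(ALPHA)1 stood at 0.879 and 0 CPM in med7, against 334 and 346 CPM in parent. All 5 a-specific genes rose and all 4 alpha-specific genes fell in med7. The labels give every strain as MATa, which these genes match in the libraries labelled med7 and not in those labelled med21, med10 or parent. In every comparison with med7 the difference in these genes goes along with the allele, and its part in the results below was not tested. Barcodes are the same for med7 and med10 in the labels, which name no sequencing run, so run and strain cannot be told apart.

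The sterol regulatory element gives a first view of these genes as sequence. Its core, TCGTATA, was searched on both strands in the 300 bases before each annotated transcript start, and 4 of the 28 genes (14.3%) held it, against 4.28% of the 4928 coding transcripts. These were ERG2, ERG3, ERG28 and ERG8, and ERG3 held it on either strand. The stretches are shown because 3 of these genes, ERG2, ERG28 and ERG3, had the highest fold changes of the set in med7. This holds for the fit of all 8 libraries and not for each alternative, as described below for the late branch. Sequences are RefSeq's, build R64, 160 bases each, written 5′ to 3′ on the strand of the gene, and capitals mark TCGTATA or its reverse complement TATACGA. No other annotated transcript overlaps any of the 4 stretches.
ERG2, chrXIII:667312-667471, plus strand: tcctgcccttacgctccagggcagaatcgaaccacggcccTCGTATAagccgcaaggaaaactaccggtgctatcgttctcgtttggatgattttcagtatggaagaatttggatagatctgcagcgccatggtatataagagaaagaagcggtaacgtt
ERG3, chrXII:253513-253672, plus strand: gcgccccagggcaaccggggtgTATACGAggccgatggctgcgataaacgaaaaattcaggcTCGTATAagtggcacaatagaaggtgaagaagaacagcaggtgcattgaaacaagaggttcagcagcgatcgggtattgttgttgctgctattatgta
ERG28, chrV:238156-238315, minus strand: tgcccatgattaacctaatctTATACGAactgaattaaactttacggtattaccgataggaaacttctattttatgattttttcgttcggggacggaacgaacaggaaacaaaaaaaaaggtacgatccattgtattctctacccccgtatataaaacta
ERG8, chrXIII:712146-712305, plus strand: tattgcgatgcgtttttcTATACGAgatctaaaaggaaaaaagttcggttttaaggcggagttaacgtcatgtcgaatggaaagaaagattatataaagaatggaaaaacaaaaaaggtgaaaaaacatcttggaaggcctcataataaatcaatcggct
The core begins 160 bases before the transcript start of ERG2, 248 and 208 bases before that of ERG3, 239 bases before that of ERG28 and 142 bases before that of ERG8. The letters CATGTG, the core of the element bound by the phospholipid regulators Ino2 and Ino4, were found before ERG27 and ERG11 (7.14% of the genes, against 8.58% of coding transcripts). The TATA box letters TATAAA were found before 17 genes (60.7%, against 46.3%), ERG28 and ERG8 among them. As for TCGTATA, hits of CATGTG and TATAAA were counted on both strands, here and in the window described next. Before ECM22, ERG6, ERG5, IDI1, ERG26, OLE1 and ERG7, TATAAA lay only on the strand opposite to the gene. In the window from 250 bases before to 50 bases after the start of the RefSeq gene, 2 genes (7.14%) held TCGTATA, 1 (3.57%) held CATGTG and 17 (60.7%) held TATAAA, against 4.23%, 6.75% and 44.1% of the 4842 coding transcripts matched to RefSeq. The 2 with TCGTATA in this window were ERG2 and ERG8, so ERG3 and ERG28 did not hold it there. A match is a description of letters only.

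In parent, most of these genes were transcribed above the level of a typical coding transcript. Per kb of annotated transcript span, the median gene of the set stood at 94.1 CPM per kb, against 56.5 CPM per kb over the 4907 coding transcripts tested, and 22 of 28 lay above that value. ERG6 had the highest level (211 ± 9.05 CPM per kb, SD, n = 2), followed by NCP1 (175 ± 7.38), ERG11 (168 ± 14.6), OLE1 (158 ± 11.0) and ERG20 (151 ± 8.18). The 4 that follow ERG6 lie close together, and each differs from the next by less than the larger of their SDs. ERG26 (27.3 ± 4.35 CPM per kb) and ERG28 (28.2 ± 0.987) were lowest and did not differ beyond their spread. Genes of the same late branch, from lanosterol to ergosterol, thus stood at both ends of the order. In the med7 libraries ERG11 (417 ± 121 CPM per kb) and ERG20 (410 ± 56.8) had the highest means, and UPC2 (28.7 ± 5.54) had the lowest.

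**Figure D1:**
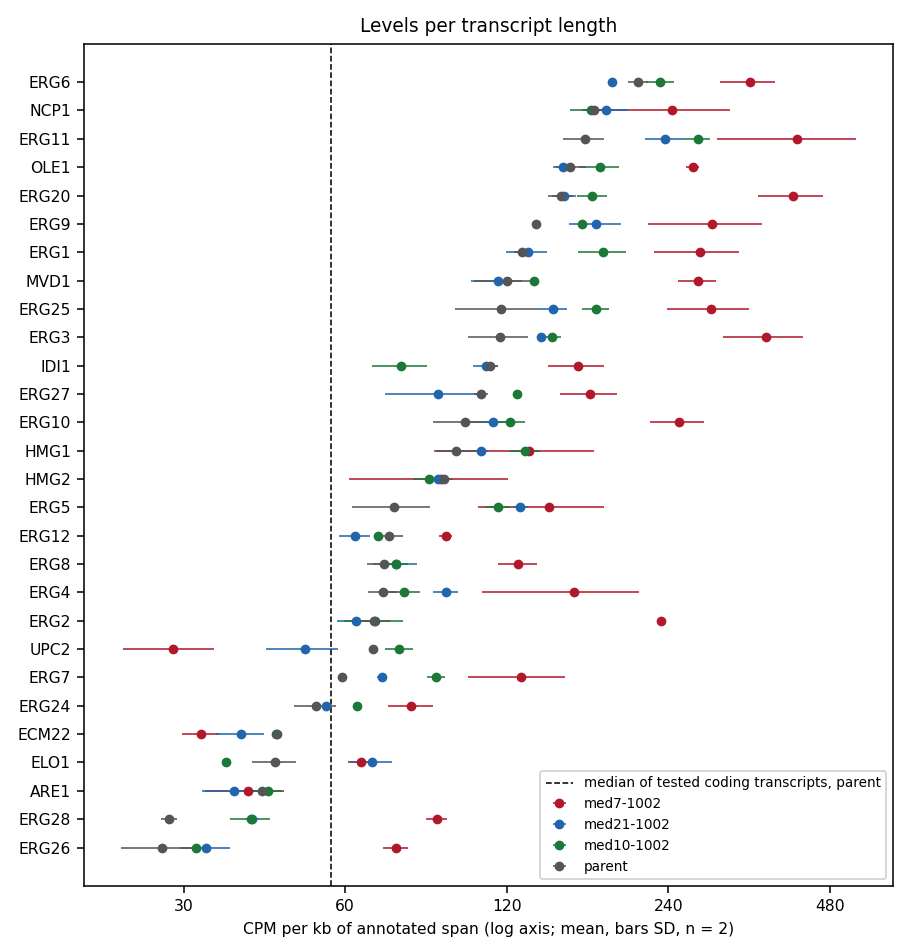
Level of each gene in CPM per kb of annotated transcript span, on a log axis, in med7-1002, med21-1002, med10-1002 and parent. Points are means and bars SDs of n = 2 libraries, and the dashed line is the parent median of the coding transcripts tested, 56.5 CPM per kb; 22 of the 28 parent points lie to its right.

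The strongest pattern was in med7, where nearly the whole pathway was higher than in parent. In the med7 strain 22 of the 28 genes rose (78.6%), against 25.9% of all transcripts tested, and 2 fell (7.14%), against 22.6%. With library size alone in place of TMM scaling the shares over all transcripts were 22.3% higher and 29.8% lower, and 20 of the genes rose and 2 fell. The 2 that fell were UPC2 and ECM22, the transcription factor genes. The median log2 fold change of the 28 genes was 0.90, against 0.02 over all transcripts, 0.04 over the 4373 coding transcripts within the same range of span and 0.03 over the 3218 within the same range of level. Of the 23 ergosterol pathway enzymes and their partner proteins, 20 rose and none fell in med7, with a median log2 fold change of 1.11. At an unadjusted p under 0.05, 21 were higher and 0 lower with edgeR, and with DESeq2 21 rose and 0 fell. Their summed level was 6463 and 8373 CPM in med7, against 4018 and 3651 CPM in parent. In the other mutants this sum was 4384 and 4172 CPM for med21 and 4803 and 4485 CPM for med10, above both parent libraries in each case and below both med7 libraries. For 23 of the 28 genes both med7 libraries lay above both parent libraries, for UPC2 and ECM22 below, and for HMG1, HMG2 and ARE1 the groups overlapped. How many of all transcripts separate in this way was not counted, so the 23 describe these genes only.

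**Figure D2:**
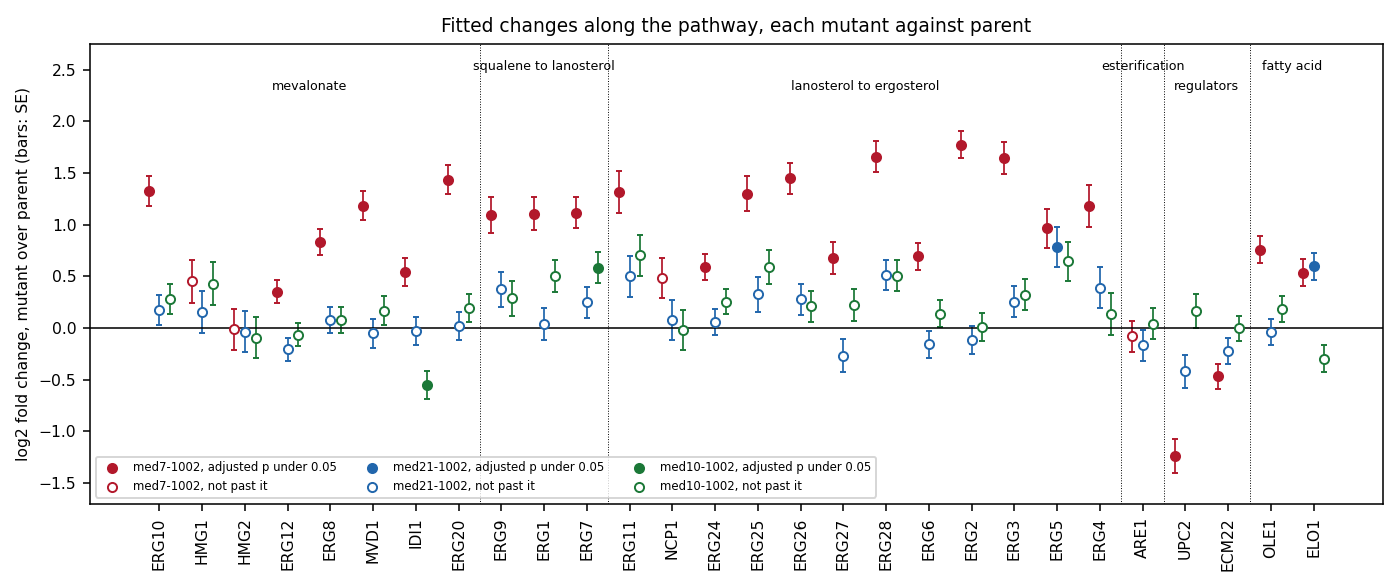
Fitted log2 fold change of each mutant over parent (y axis, bars SE) for the 28 genes in pathway order, with med7-1002 left, med21-1002 centre and med10-1002 right within each gene; filled points have an adjusted p under 0.05. The med7-1002 points lie above 0 for 24 genes, with UPC2 the lowest at -1.24 and ERG2 the highest at 1.78.

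The mevalonate branch makes isoprenoid units and joins them to farnesyl pyrophosphate, and 6 of its 8 genes rose in med7. ERG20 encodes farnesyl pyrophosphate synthase, the branch point to sterols, and had the highest parent level of this branch per kb (transcript on chromosome X, 104958 to 106187, plus strand). It stood at 454 and 553 CPM in med7, against 193 and 179 CPM in parent, without overlap. Its log2 fold change was 1.44 (SE 0.14, adjusted p = 6.25e-05). ERG8, the phosphomevalonate kinase gene whose promoter is shown above, had the lowest parent level of the branch per kb, not beyond its spread from ERG12. ERG8 counted 191 and 216 CPM in med7, against 120 and 109 CPM in parent, a log2 fold change of 0.83 (SE 0.13, adjusted p = 0.000808). ERG10, for the acetoacetyl-CoA thiolase that opens the pathway, and MVD1, for mevalonate pyrophosphate decarboxylase, rose by 1.32 and 1.18 on the log2 scale. ERG12, for mevalonate kinase, had the smallest rise that passed the test (132 and 137 CPM in med7, against 110 and 101 CPM in parent, log2 fold change 0.35, SE 0.11, adjusted p = 0.0303). Its call depended on single libraries, with an adjusted p of 0.0968 without parent replicate 1, 0.312 without parent replicate 2, 0.115 without med10 replicate 1 and 0.0948 without med10 replicate 2.

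The genes of the mevalonate branch that did not rise were the paralogs HMG1 and HMG2, for the isozymes of HMG-CoA reductase, the rate-limiting enzyme of the pathway and the target of statins in human cells. HMG1 (chromosome XIII, 115582 to 118976, minus strand) stood at 344 and 551 CPM in med7, 373 and 357 CPM in med21, 462 and 421 CPM in med10, and 348 and 307 CPM in parent. The med7 libraries lay on both sides of the higher parent library, and the log2 fold change of 0.45 (SE 0.21, adjusted p = 0.101) missed the threshold. HMG2 (chromosome XII, 1032444 to 1035853, plus strand) stood at 237 and 381 CPM in med7, 310 and 299 CPM in med21, 306 and 279 CPM in med10, and 322 and 303 CPM in parent. The med7 libraries of HMG2 enclosed the parent libraries, with a log2 fold change of -0.01 (SE 0.20, adjusted p = 0.965). The sign for HMG2 follows the med7 library used: it was 0.29 (adjusted p = 0.0277) without med7 replicate 1 and -0.41 (adjusted p = 0.00537) without med7 replicate 2. For HMG1 it was 0.75 (adjusted p = 8.50e-05) without med7 replicate 1, 0.05 (adjusted p = 0.704) without med7 replicate 2, and 0.73 (adjusted p = 0.00121) after a correction for transcript length. The antisense transcript SUT713 covers 2078 bases of HMG2 at a mean of 1.83 CPM in med7 and 2.11 CPM in parent.

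IDI1, for the isomerase that makes dimethylallyl from isopentenyl pyrophosphate, passed the test in opposite directions in med7 and med10. IDI1 (chromosome XVI, 327809 to 328847, minus strand) counted 184 and 155 CPM in med7, 110 and 118 CPM in med21, 72.7 and 86.0 CPM in med10, and 114 and 119 CPM in parent. The med7 libraries were the highest, the med10 libraries the lowest, and those of med21 overlapped parent. IDI1 rose in med7 (log2 fold change 0.54, SE 0.14, adjusted p = 0.0104) and fell in med10 (-0.55, SE 0.14, adjusted p = 0.0449). The difference between alleles passed the test as well, at 1.09 for med7 against med10 (adjusted p = 0.000241) and 0.52 for med21 against med10 (adjusted p = 0.0300). The med7 call did not pass without parent replicate 1 (adjusted p = 0.0864) or parent replicate 2 (0.0938), with library size alone (0.0753), or with only med7 and parent fitted (0.0515). After the length correction the log2 fold change was 0.28 (adjusted p = 0.0562). The med10 call did not pass with RLE factors (adjusted p = 0.0508), library size alone (0.0953), upper-quartile scaling (0.0673) or a replicate block (0.0920).

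The 3 enzymes that turn farnesyl pyrophosphate into lanosterol all rose in med7, by nearly the same factor. ERG9, for squalene synthase, had the highest parent level of the 3 per kb (chromosome VIII, 484796 to 486283, plus strand). ERG9 stood at 357 and 504 CPM in med7, against 203 and 201 CPM in parent, a log2 fold change of 1.09 (SE 0.17, adjusted p = 0.000868). ERG1, for squalene epoxidase, the target of terbinafine, rose by 1.11 on the log2 scale. ERG7, for lanosterol synthase, had the lowest parent level of the 3 per kb (chromosome VIII, 239032 to 241407, plus strand). ERG7 counted 260 and 348 CPM in med7, 169 and 164 CPM in med21, 216 and 205 CPM in med10, and 142 and 139 CPM in parent, so that none of the mutant libraries overlapped parent. It rose in med7 (1.11, SE 0.15, adjusted p = 0.000368) and in med10 (0.58, SE 0.15, adjusted p = 0.0484), and its log2 fold change in med21 was 0.25 (adjusted p = 0.388).

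The late branch, from lanosterol to ergosterol, held the largest changes, and 11 of its 12 genes rose in med7, with a median log2 fold change of 1.24. ERG2, for the sterol isomerase that is bound by morpholine fungicides, had the highest fold change of all 28 genes in the fit of all 8 libraries (chromosome XIII, 667512 to 668271, plus strand). Over 17 alternatives its log2 fold change in med7 ran from 1.30 to 1.85 and that of ERG3 from 1.44 to 1.81, so ERG2 was not highest in each. ERG2 stood at 177 and 176 CPM in med7, 45.1 and 50.3 CPM in med21, 56.5 and 47.3 CPM in med10, and 54.2 and 49.1 CPM in parent. The med7 libraries agree closely and lie 3.42-fold above parent (log2 fold change 1.78, SE 0.14, adjusted p = 2.16e-05), while those of med21 and med10 overlap parent, with log2 fold changes of -0.11 (adjusted p = 0.689) and 0.01 (adjusted p = 0.980). ERG28, for the protein that holds the sterol demethylation enzymes together, was transcribed at 52.6 and 56.1 CPM in med7, against 16.8 and 17.6 CPM in parent (log2 fold change 1.66, SE 0.15, adjusted p = 4.20e-05). ERG3, for a sterol desaturase, stood at 419 and 534 CPM in med7, against 166 and 138 CPM in parent (1.65, SE 0.15, adjusted p = 5.25e-05). These 3 genes all hold the TCGTATA core shown above, and ERG8, the other gene that does, had a fold change close to the median of the set. Over the 17 alternatives the lowest log2 fold change of ERG28 lay under the lowest of ERG20 (1.27) and of ERG26 (1.22). ERG28 was therefore not among the 3 highest genes in each alternative.

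The remaining late genes rose by less, with NCP1 the exception that did not pass. ERG26, for the sterol decarboxylase and the lowest gene of the branch per kb (chromosome VII, 495330 to 496599, minus strand), counted 98.2 and 91.0 CPM in med7, against 38.6 and 30.8 CPM in parent (log2 fold change 1.45, SE 0.15, adjusted p = 9.62e-05). ERG6, for the sterol methyltransferase that sets ergosterol apart from cholesterol and the highest gene of the branch per kb (chromosome XIII, 251750 to 253024, minus strand), counted 398 and 470 CPM in med7, against 277 and 260 CPM in parent (0.69, SE 0.13, adjusted p = 0.00225). ERG6 therefore ranked first in parent and rose less than most of the branch. ERG11, for the cytochrome P450 that azoles inhibit, stood at 669 and 1014 CPM in med7, 506 and 450 CPM in med21, 571 and 528 CPM in med10, and 359 and 317 CPM in parent. All mutant libraries of ERG11 lay above both parent libraries, and the rise passed in med7 (1.32, SE 0.20, adjusted p = 0.000744) but not in med21 (0.50, adjusted p = 0.183) or med10 (0.70, adjusted p = 0.0681). ERG25, for the sterol methyl oxidase, ERG4, for the last reductase of the pathway, ERG27, for the keto reductase, and ERG24, for the reductase inhibited by morpholines, rose in med7 by 1.30, 1.18, 0.68 and 0.59. ERG24 and ERG27 lost their calls without parent replicate 2, with adjusted p = 0.0654 and 0.0872. NCP1, the reductase that passes electrons to Erg11 and Erg5, stood at 429 and 641 CPM in med7, against 394 and 372 CPM in parent (0.48, SE 0.19, adjusted p = 0.0659), and was at 0.74 (adjusted p = 0.000146) without med7 replicate 1 and at 0.15 (adjusted p = 0.307) without med7 replicate 2. NCP1 also passed with library size alone (0.34, adjusted p = 0.0376), with DESeq2 (0.47, adjusted p = 0.0365) and after the length correction (0.74, adjusted p = 0.00150).

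ERG5, for the second P450 of the pathway, was the late gene whose fold changes in the 3 mutants lay closest together (chromosome XIII, 300679 to 302539, minus strand). ERG5 counted 218 and 318 CPM in med7, 242 and 232 CPM in med21, 223 and 207 CPM in med10, and 154 and 121 CPM in parent. All 6 mutant libraries lay above both parent libraries. The log2 fold change was 0.96 (SE 0.19, adjusted p = 0.00302) in med7, 0.78 (SE 0.19, adjusted p = 0.0399) in med21 and 0.64 (adjusted p = 0.0750) in med10. The differences between alleles were small against their error, at 0.18 for med7 against med21 (adjusted p = 0.467), 0.32 for med7 against med10 (adjusted p = 0.179) and 0.14 for med21 against med10 (adjusted p = 0.641). The Xrn1-sensitive transcript XUT_13F-137, which starts 284 bases upstream on the other strand, went the opposite way, with 12.7 and 4.33 CPM in med7, 9.82 and 12.7 CPM in med21, 8.87 and 8.87 CPM in med10, and 22.2 and 34.7 CPM in parent. It fell in med7 (-1.77, SE 0.45, adjusted p = 0.0106) and had log2 fold changes of -1.34 (adjusted p = 0.113) in med21 and -1.68 (adjusted p = 0.0543) in med10.

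**Figure D3:**
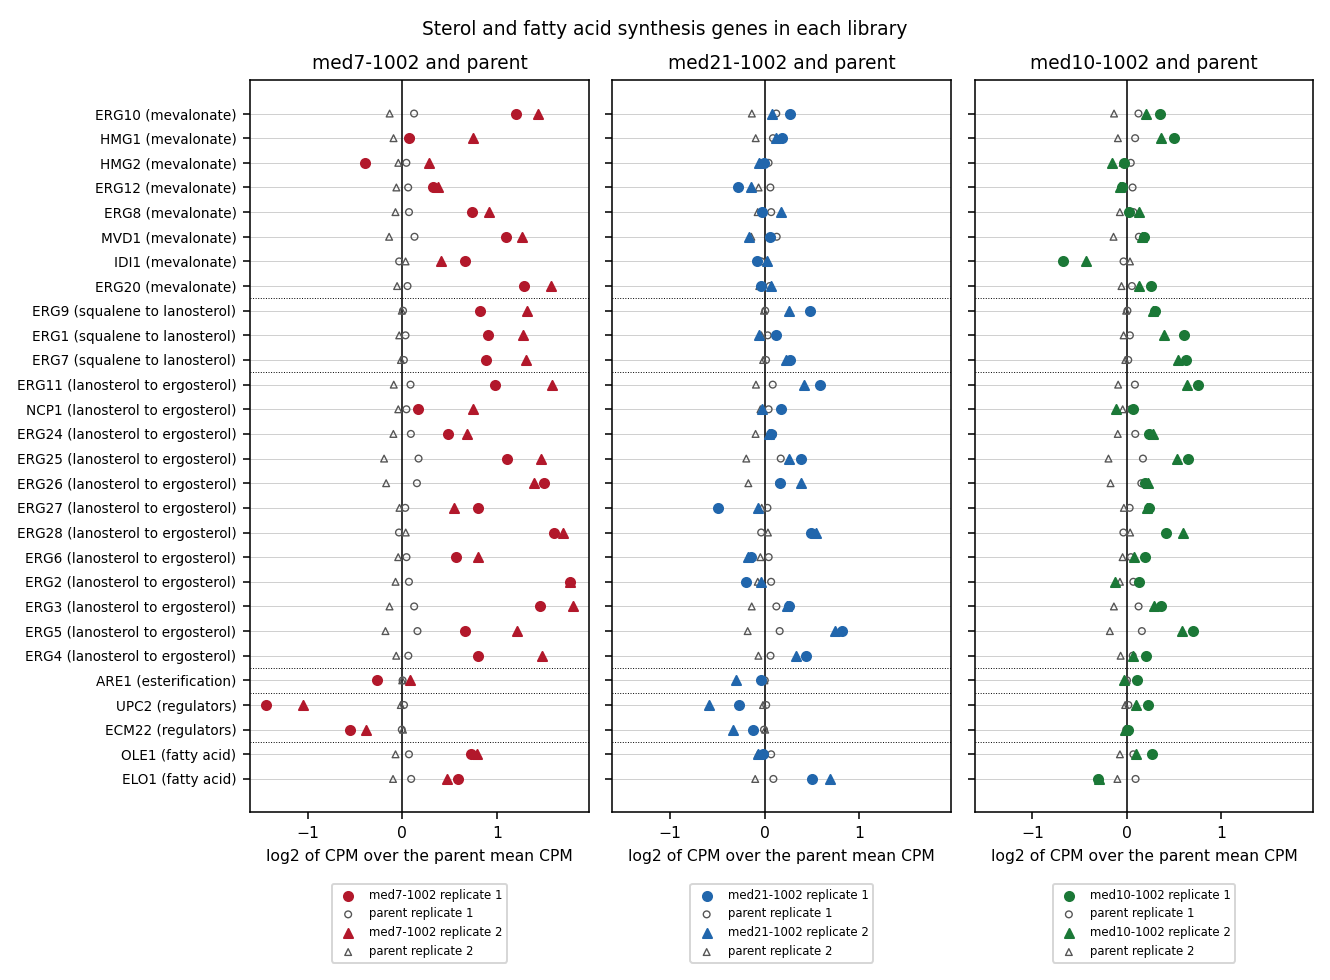
Each library of med7-1002, med21-1002 and med10-1002 (filled) and of parent (open) as log2 of its CPM over the parent mean CPM, for the 28 genes in pathway order; circles are replicate 1 and triangles replicate 2. In the med7-1002 panel both libraries lie to the right of both parent libraries for 23 genes, and to the left for UPC2 and ECM22. The share of all transcripts that separate in this way was not counted.

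The regulators moved against the enzymes in med7. UPC2, the main sterol-responsive activator (chromosome IV, 889537 to 892532, plus strand), stood at 74.2 and 97.6 CPM in med7, 168 and 135 CPM in med21, 236 and 217 CPM in med10, and 205 and 200.3 CPM in parent. The med7 libraries were the lowest, those of med21 lay between them and parent, and those of med10 lay above parent. UPC2 was 2.35-fold lower in med7 (log2 fold change -1.24, SE 0.16, adjusted p = 0.000361), and its log2 fold change was -0.42 in med21 (adjusted p = 0.170) and 0.16 in med10 (adjusted p = 0.582). Between alleles, UPC2 was lower in med7 than in med21 (-0.81, adjusted p = 0.00470) and than in med10 (-1.40, adjusted p = 0.000164), and lower in med21 than in med10 (-0.58, adjusted p = 0.0361). Its paralog ECM22 (chromosome XII, 599800 to 602666, minus strand) counted 87.7 and 98.0 CPM in med7, 118 and 102 CPM in med21, 130 and 126 CPM in med10, and 128 and 129 CPM in parent. The med7 libraries of ECM22 were again the lowest and those of med21 lay between them and parent, while those of med10 overlapped parent. ECM22 was 1.38-fold lower in med7 (-0.47, SE 0.12, adjusted p = 0.0121), and missed the threshold without parent replicate 1 (-0.48, adjusted p = 0.0739) and after the correction for transcript length (-0.15, adjusted p = 0.229).

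ARE1, for a sterol acyltransferase that stores sterols as esters, did not follow the enzymes. ARE1 (chromosome III, 211875 to 213976, plus strand) stood at 73.1 and 93.1 CPM in med7, 85.6 and 71.2 CPM in med21, 94.6 and 86.6 CPM in med10, and 88.2 and 88.0 CPM in parent. The med7 libraries enclosed the parent libraries, and the log2 fold change was -0.08 (SE 0.15, adjusted p = 0.681) in med7, -0.17 in med21 and 0.04 in med10. Its call was the same in all 17 alternatives run for med7 against parent.

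Both fatty acid genes rose in med7. OLE1, for the fatty acid desaturase that makes palmitoleic and oleic acid (chromosome VII, 398566 to 400384, plus strand), stood at 476 and 495 CPM in med7, 284 and 272 CPM in med21, 346 and 306 CPM in med10, and 301 and 273 CPM in parent. OLE1 rose in med7 (log2 fold change 0.76, SE 0.13, adjusted p = 0.00120), and had log2 fold changes of -0.04 in med21 and 0.18 in med10. ELO1, for the elongase of medium-chain fatty acids (chromosome X, 67715 to 68805, minus strand), stood at 72.9 and 67.3 CPM in med7, 68.7 and 78.0 CPM in med21, 39.1 and 39.5 CPM in med10, and 51.6 and 45.2 CPM in parent. The med7 and med21 libraries of ELO1 lay above parent and overlapped each other, and the med10 libraries lay below parent. ELO1 rose in med7 (0.53, SE 0.13, adjusted p = 0.00903) and in med21 (0.60, SE 0.13, adjusted p = 0.0282), with -0.30 (adjusted p = 0.198) in med10. It was higher in med7 than in med10 (0.83, adjusted p = 0.000783) and in med21 than in med10 (0.90, adjusted p = 0.00260). In med7 it missed the threshold once parent replicate 2 was left out (log2 fold change 0.36). The med7 call of ELO1 was also lost with library size alone (0.43, adjusted p = 0.0640) and with only med7 and parent fitted (0.52, adjusted p = 0.0502). With a replicate block and length correction together it was lost as well (0.32, adjusted p = 0.0725).

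**Figure D4:**
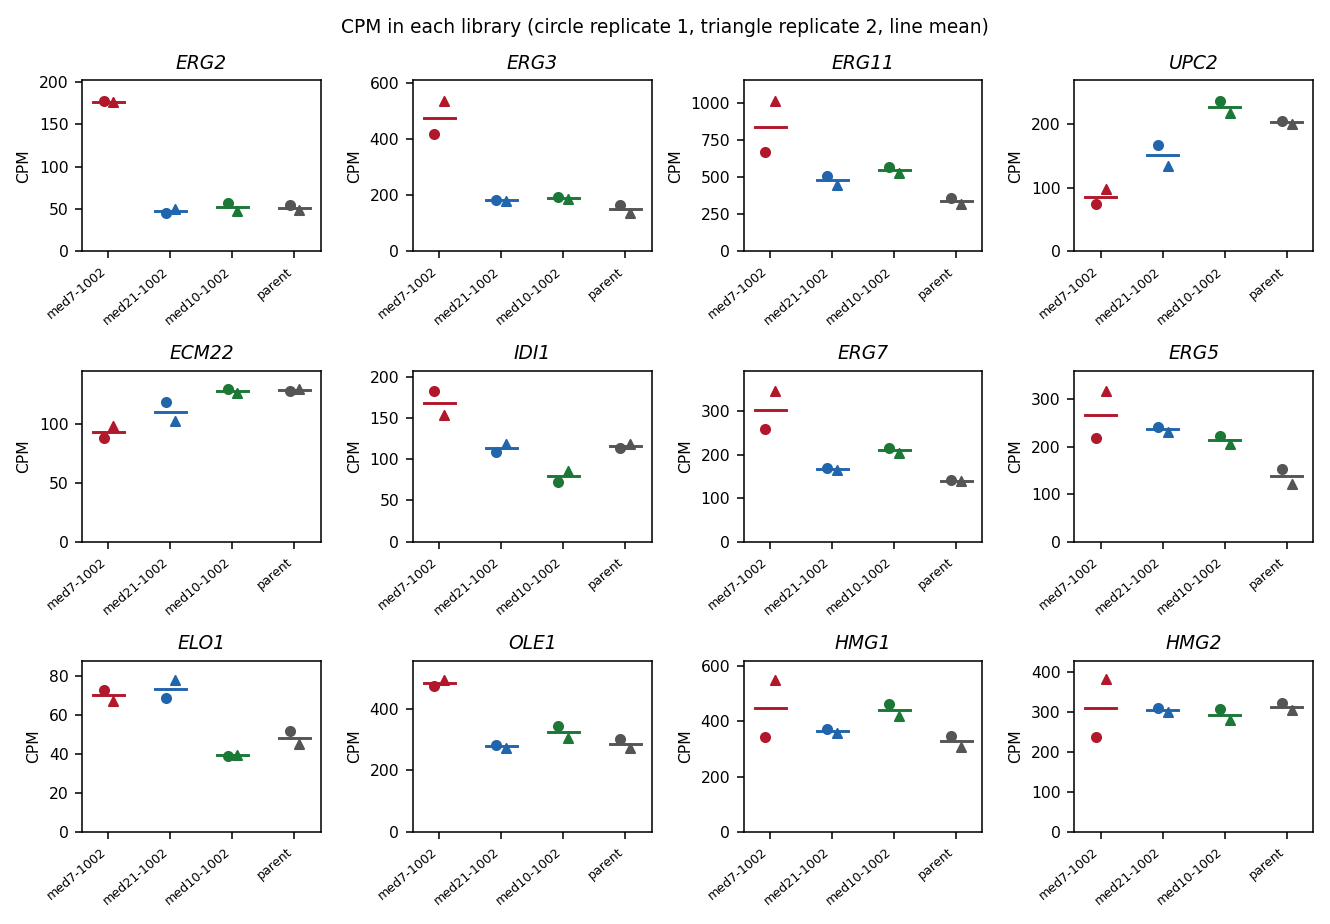
CPM (y axis, from 0) in each library of med7-1002, med21-1002, med10-1002 and parent for 12 genes; circles are replicate 1, triangles replicate 2 and lines the means. ERG2 and ERG3 are highest in med7-1002, ERG5 is above parent in all 6 mutant libraries, ELO1 is high in med7-1002 and med21-1002, and UPC2 is lowest in med7-1002.

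Few genes of the set passed the test in the other mutants when all 8 libraries were fitted together. In med21, ERG5 and ELO1 rose (7.14% of the 28 genes, against 3.88% of all transcripts) and none fell, against 3.92%. At an unadjusted p under 0.05, 4 genes were higher and 1 lower in med21 with edgeR. DESeq2 called 3 higher and 0 lower, against 6.92% and 5.79% of all transcripts. In med10, ERG7 rose (3.57%, against 4.93%) and IDI1 fell (3.57%, against 2.63%). At an unadjusted p under 0.05, 6 genes were higher and 2 lower in med10 with edgeR. There DESeq2 called 6 higher and 1 lower, against 9.15% and 5.54% of all transcripts. The median log2 fold change of the 28 genes was 0.07 in med21 and 0.19 in med10, against -0.00 and -0.01 over all transcripts. The shared estimate of the spread includes the med7 libraries, whose replicates differed most, and without them more genes passed. In that fit 7 genes rose in med21 (25.0%, against 14.8% of the 5701 transcripts tested) and 1 fell (3.57%, against 14.9%), and 11 rose in med10 (39.3%, against 20.8%) and 1 fell (3.57%, against 16.0%). The genes that rose in med21 were ELO1, ERG5, ERG28, ERG4, ERG11, ERG7 and ERG9, and UPC2 fell (-0.42, adjusted p = 0.00937). Those that rose in med10 were ERG11, ERG5, ERG25, ERG7, ERG28, ERG1, HMG1, ERG3, ERG9, ERG10 and ERG24, with log2 fold changes of 0.72 for ERG11 and 0.61 for ERG7, and IDI1 fell (-0.53). In the fit of all libraries the 4 calls of ERG5, ELO1, ERG7 and IDI1 were each lost when any single library of parent, med21 or med10 was left out, so the counts then fell to 0 for med21 and to 0 for med10. The 3 comparisons with parent share the parent libraries, so their values are not independent of each other.

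The mutant strains were also compared directly. Of the 28 genes, 20 were higher in med7 than in med21 (71.4%, against 22.1% of all transcripts) and 1, UPC2, was lower (3.57%, against 18.6%). With library size alone these shares over all transcripts were 18.8% and 26.4%. In med7 against med10, 21 were higher (75.0%, against 29.9%) and UPC2 and ECM22 were lower (7.14%, against 25.0%). This last count fell to 12 higher and 1 lower without med10 replicate 2. HMG1, HMG2, NCP1, ERG5 and ARE1 passed in neither comparison. Between med21 and med10, IDI1 and ELO1 were higher in med21 (7.14%, against 9.38%) and UPC2 was lower (3.57%, against 10.6%). Without the med7 libraries, 2 genes were higher in med21 than in med10 (7.14%, against 22.4%) and 8 were lower (28.6%, against 24.9%), namely ECM22, ERG27, HMG1, ERG6, UPC2, ERG1, OLE1 and ERG7.

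Genes around the sterol pathway were counted in med7 against the same shares over all transcripts, 25.9% higher and 22.6% lower. Among accessory and turnover factors of sterols, 7 of 15 rose and 1 fell. CBR1 and CYB5, for the cytochrome b5 reductase and cytochrome b5 that feed electrons to sterol and fatty acid desaturation, had the smallest adjusted p of those that rose. CBR1 counted 281 and 269 CPM in med7, against 57.0 and 56.0 CPM in parent (log2 fold change 2.28, adjusted p = 1.19e-05), and CYB5 61.2 and 48.1 CPM, against 20.0 and 14.5 CPM (1.66, adjusted p = 0.000551). ATF2, for an acetyltransferase that modifies sterols for export, fell (-0.68, adjusted p = 0.0155). Of 4 genes for cytosolic acetyl-CoA, the carbon source of both pathways, 3 rose, led by the synthetase genes ACS1 (1.76, adjusted p = 0.000387) and ACS2 (1.12, adjusted p = 0.00122).

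Other genes of fatty acid synthesis and activation rose in 8 of 19 cases and fell in 2, against 25.9% and 22.6% of all transcripts. ELO2, for an elongase of very long chains (1.18, adjusted p = 6.25e-05), and ETR1, for a reductase of mitochondrial fatty acid synthesis (1.01, adjusted p = 0.000572), rose. OAR1 (-0.76, adjusted p = 0.0435) and HTD2 (-0.65, adjusted p = 0.0394), which serve the same mitochondrial route as ETR1, fell. Of 10 genes for beta-oxidation, the breakdown of fatty acids in peroxisomes, 4 fell, against 22.6% of all transcripts, and 6 did not pass. PXA1, for a subunit of the peroxisomal fatty acid importer, counted 25.1 and 21.3 CPM in med7, 64.2 and 38.4 CPM in med21, 139 and 171 CPM in med10, and 122 and 121 CPM in parent. It fell in med7 (-2.40, adjusted p = 7.04e-05) and in med21 (-1.25, adjusted p = 0.0118), and PIP2, for an oleate-responsive activator, fell in med7 (-1.21, adjusted p = 0.00233).

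Of 9 genes of isoprenoid branches that draw on farnesyl pyrophosphate or its precursors, 2 rose and 2 fell in med7, close to the shares over all transcripts (25.9% and 22.6%). RAM2, for the shared subunit of protein prenyltransferases (1.18, adjusted p = 0.000179), and COQ2, of ubiquinone synthesis (0.89, adjusted p = 0.00530), rose, while MOD5, which prenylates tRNA (-0.64, adjusted p = 0.00179), and BTS1, for geranylgeranyl diphosphate synthase (-0.72, adjusted p = 0.00566), fell. COQ2 starts 187 bases upstream of MVD1 on the other strand, and both rose in med7. RAM2 also rose in med10 (1.08, adjusted p = 0.00366). Of 4 other sterol-related transcription factor genes listed, 2 were tested, and both fell in med7, against 22.6% of all transcripts. ROX1, the heme-dependent repressor of hypoxic genes, counted 660 and 731 CPM in med7, against 1626 and 1909 CPM in parent (-1.35, adjusted p = 0.000188), and fell in med10 too (-0.95, adjusted p = 0.0108). SUT1, which promotes sterol uptake, fell in med7 (-0.42, adjusted p = 0.0273). MGA2 (-1.06, adjusted p = 0.00193) and SPT23 (-0.67, adjusted p = 0.0140), for the membrane-bound activators of OLE1, fell in med7 and UBX2, the other gene of the list on OLE1 control, did not pass, so that 2 of 3 fell. TIR1, TIR2 and TIR3, for cell wall proteins made without oxygen, were the tested genes of the anaerobic list, and stood at 1.49 to 9.53 CPM in all libraries with adjusted p from 0.111 to 0.966 against parent.

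In the other mutants these lists held fewer calls than in med7. Over all transcripts, 3.88% were higher and 3.92% lower in med21, and 4.93% higher and 2.63% lower in med10. In med21, ALD6, for the aldehyde dehydrogenase that feeds acetyl-CoA synthesis, rose (0.89, adjusted p = 0.0272), of 4 genes for cytosolic acetyl-CoA. FAA1, for the main fatty acid activating enzyme, rose as well (0.73, adjusted p = 0.0250), of 19 genes of fatty acid synthesis and activation. In med10, FAA3 (1.06, adjusted p = 0.0171) and PPT2 (1.43, adjusted p = 0.0346) rose and ACP1 (-0.57, adjusted p = 0.0198) fell, of 19 genes of fatty acid synthesis and activation, and FAA2, an acyl-CoA synthetase of peroxisomes, rose (0.61, adjusted p = 0.0436), of 10 for beta-oxidation.

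**Figure D5:**
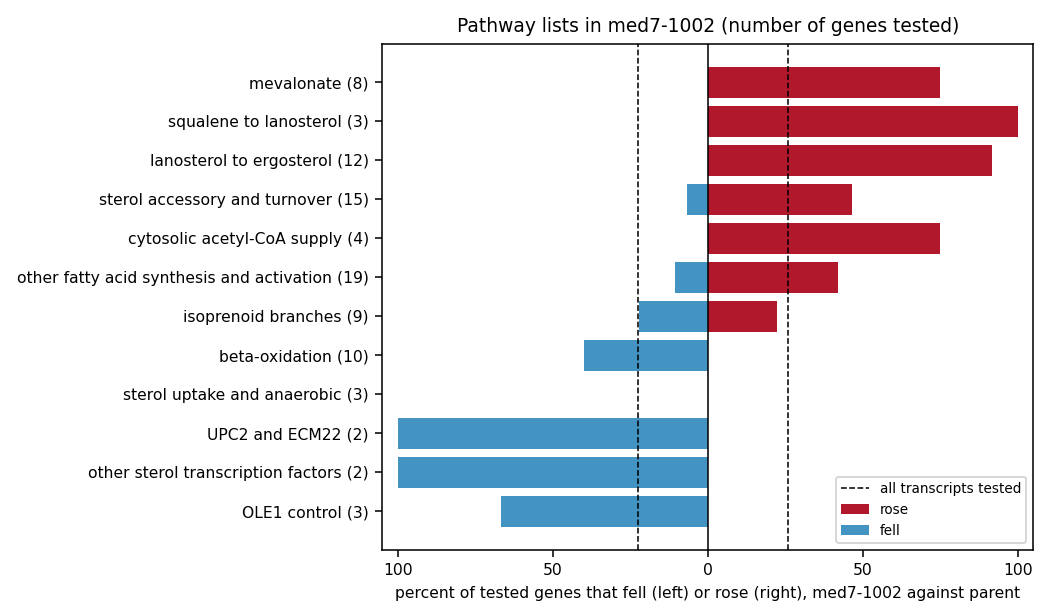
Share of the tested genes of 12 lists that rose (right) or fell (left) in med7-1002 against parent, with the number tested in brackets; dashed lines are the shares over all transcripts, 25.9% higher and 22.6% lower. The 3 lists of pathway enzymes stand at 6 of 8, 3 of 3 and 11 of 12 genes higher and acetyl-CoA supply at 3 of 4, and the lists of transcription factors lie to the left; ARE1, OLE1 and ELO1 are not drawn.

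Neighbouring genes were looked at as well. Of 13 coding transcripts that start upstream of one of these genes on the other strand, 187 to 929 bases away, 3 rose, 3 fell and 7 did not pass in med7, close to the shares over all transcripts (25.9% higher and 22.6% lower). Those that fell were SET2 upstream of ERG20 (-0.41, adjusted p = 0.0141), YAP1 upstream of ERG6 (-0.43, adjusted p = 0.0379) and ICT1 upstream of ERG27 (-1.10, adjusted p = 0.000133), each before a sterol gene that rose. GPI16 upstream of ERG9 (0.91, adjusted p = 0.00497) and SRB2 upstream of NCP1 (1.43, adjusted p = 0.000231) rose, as did COQ2. Other annotated transcripts lie nearer to ERG27 (MIM2, 133 bases) and to NCP1 (CUT642, 209 bases). Another transcript covers part of the opposite strand in 9 of the 28 genes, over 9 to 2078 bases, and for 19 genes no annotated transcript does.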

How the data were processed

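Each library has 1 deposited file of raw read counts per annotated transcript. The submitters' processing notes name the tools STAR 2.3.0, SAMtools and HTSeq and the builds sacCer3 and R64. The strand setting is not given in the sources used here. Read counts of spike-in RNA were not analysed here, and the reads outside annotated transcripts (32.7% to 49.5% per library) entered no library size or test. Total counts per library ran from 10962170 to 23629303, and counts of the 28 genes from 316 to 20621 per library.

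The test was edgeR's quasi-likelihood test (version 4.0.16, R 4.3.3), with TMM scaling and filterByExpr at a minimum count of 10, which removed 284 transcripts and left 5746. The 4 groups and their 8 libraries were fitted together, which leaves 4 residual degrees of freedom. Benjamini-Hochberg adjustment ran over all transcripts tested, with a threshold of 0.05. Standard errors (SE) were derived from each fold change and its F value. The procedure was also run on simulated counts, and no result given here rests on that run. Alternatives were other scalings, no filter, fewer groups, each library left out, a replicate block, a lowess correction of log2 values for transcript span, and DESeq2 1.42.0.

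The 33 genes and all lists were chosen with earlier results of these data known. Genes given in full are those past the threshold in med21 or med10 against parent, those highest and lowest per kb in parent within each step of the pathway, the paralogs, and those whose promoters are shown. ERG11 and the neighbours were named after their values were seen. From each related list up to 2 genes per direction with the smallest adjusted p are named. A promoter table was planned for the motif search, and the windows were instead read from the RefSeq genome of R64, with the 300 bases before the deposited transcript start added after the files were seen.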

Additional observations from a re-analysis of the deposited data

How the results depend on the processing

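In med7 against parent, 24 of the 28 genes passed the test, and 19 to 27 did when 1 library was left out. Each of the 17 alternatives kept this count within 1.5 times. The calls of 18 genes held in all 17; those of ERG12, IDI1, ELO1, ECM22, ERG24 and ERG27 held in 9, 11, 13, 14, 16 and 16. HMG2 was 0.29 without med7 replicate 1 and -0.41 without med7 replicate 2. With library size alone the median log2 fold change of all transcripts in med7 was -0.09, against 0.02 with TMM, and that of the 28 genes 0.77, against 0.90. In med7 against med21 the count of 21 became 16 to 25 with 1 library left out, and in med7 against med10 the count of 23 became 13 to 26, with 13 without med10 replicate 2. The small counts moved more. In med21 against parent the count of 2 became 7 with only both groups fitted, 8 without the med7 libraries, 4 with the length correction, and 0 to 9 with 1 library left out. In med10 against parent the count of 2 became 1 with RLE size factors or no filter, 5 with library size alone, upper-quartile scaling or the length correction, 17 with only both groups fitted, 12 without the med7 libraries, 7 with DESeq2, and 0 to 10 with 1 library left out. In med21 against med10 the count of 3 became 5 with library size alone, upper-quartile scaling, DESeq2 or the block with length correction, 9 with only both groups fitted, 10 without the med7 libraries, 6 with the length correction, and 1 to 9 with 1 library left out. Fits without a med7 library leave less of the spread of med7 in the shared estimate; for the other changes the cause was not tested. Where a library is left out, the lone library of its group is assumed to vary like the other groups.

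Replicate numbers occur in every group. Correlations of replicate differences over all transcripts ran from -0.19 to 0.094 between groups, which gave no sign that the numbers pair the libraries. Weak correlations cannot show that no culture day or batch was shared, and the labels do not say. With the replicate number as a block the count was 0 in med21 against parent, 0 in med10 against parent and 1 in med21 against med10, and it stayed within 1.5 times in the comparisons with med7. At an unadjusted p under 0.05, edgeR with the block had 3 genes higher and 1 lower in med21, and 6 higher and 1 lower in med10. With 1 library of parent, med21 or med10 left out, where the count was 0, 3 to 5 genes were higher and 0 to 2 lower at that p in med21, and 5 to 6 higher and 0 to 2 lower in med10. Each of the 28 genes had at least 316 counts in every library.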
